A study of Mus musculus with 8 samples.

Results

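Microglia are the resident macrophages of the brain parenchyma, and a smaller population of macrophages lines its blood vessels and borders. The transcripts of 35 genes that mark these cells or act in them were followed across 4 nuclei of the mouse hypothalamus, namely the arcuate nucleus (Arc), the ventromedial hypothalamus (VMH), the dorsomedial hypothalamus (DMH), and the lateral hypothalamus (LH). The genes were chosen by name, and each array probe whose RefSeq accession belongs to one of them was taken. This gave 42 probes for 34 genes, of 55681 probes and 20284 genes with a matched accession on the array. No probe could be matched to the lysosomal glycoprotein gene *Cd68*, which was not analysed here.

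The samples were collected by laser microdissection from untreated C57BL/6 females (C57BL/6J in the methods) at 3 months of age, with 2 arrays per nucleus and 8 in all. RNA of the dissected tissue was amplified as cDNA, which was labeled and hybridised to one-color Agilent arrays. All groups share strain, sex, age, and the absence of treatment, and they differ in the nucleus alone. By the methods the nuclei came from 2 females, so samples of different nuclei share mice, but the labels do not say which samples came from the same mouse. The tests treat the 8 samples as separate. All p-values measure the spread between 2 samples per nucleus, and fewer microglia in a nucleus cannot be told apart from less of a transcript per cell in these bulk samples.

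Microglia keep watch over the parenchyma with purine receptors, the fractalkine receptor Cx3cr1, and the receptor pair of Trem2 and Tyrobp, and they depend on the growth factor receptor Csf1r for survival. They make most of the complement C1q of the brain and degrade engulfed material in lysosomes. Perivascular macrophages share many of these genes but are told apart by the mannose receptor Mrc1, the hemoglobin scavenger receptor Cd163, and the hyaluronan receptor Lyve1.

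Between 47.1% and 52.7% of the spots of an array were well above background, which is a call of the scanner software, and no spot was saturated. Signals are given after each array was scaled by its 75th percentile, and a scaled signal compares arrays for 1 probe, not probes with each other. The logarithms of the signals correlated at r = 0.982 between the Arc arrays, 0.978 between the VMH arrays, and 0.972 between the DMH arrays. The LH arrays correlated at r = 0.938, and the second LH array correlated at 0.955 with the second DMH array.

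Microglial transcripts were measured in all 4 nuclei. Of the 42 probes, 27 probes of 21 genes were well above background on all 8 arrays, and 5 probes were so on none. The genes with no probe above background on any array were *Ptprc*, *Cd14*, *Mrc1*, and *Lyve1*. Among the 26 probes of microglial genes measured on every array, the mean of the highest nucleus was 1.24 to 2.10 times that of the lowest, with a median of 1.56. The median of this ratio over all 22747 probes measured on every array was 1.48.

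The LH most often had the highest mean and the DMH the lowest. The LH mean was the highest for 18 of the 26 microglial probes, against 32.2% of all probes, and the DMH mean was the lowest for 16 of them, against 17.4% of all probes. Both LH arrays lay above the other 6 arrays for 12 of the 26 probes, a pattern shown by 13.3% of all probes. Those 12 probes belong to *Cx3cr1*, *P2ry13*, *Tmem119*, *Selplg* with both its probes, *C1qc*, *Itgb2*, *Trem2*, *Tyrobp*, *Ctss*, and *Laptm5* with both its probes. Both DMH arrays lay below the others for 4 of the 26 probes, those of *Aif1*, *Itgb2*, *Trem2*, and *Tyrobp*, where 2.95% of all probes did so. Genes are not independent of each other, so these shares describe the list and are not tested.

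**Figure D1:**
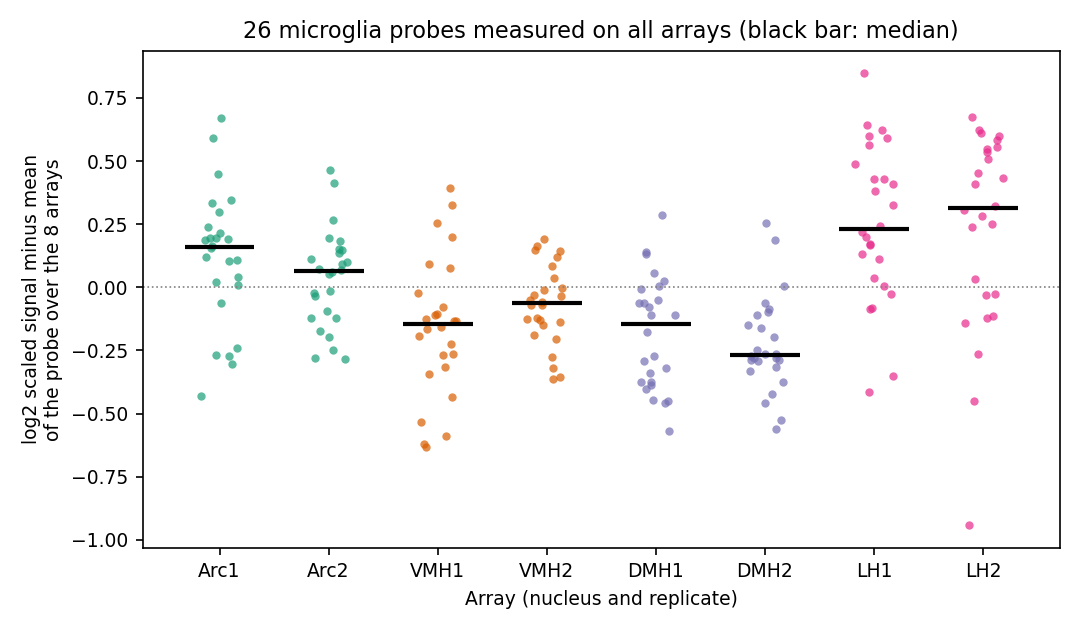
Each point is 1 of the 26 microglial probes that were well above background on all 8 arrays, as its log2 scaled signal minus the mean of that probe over the arrays, and the black bar is the median. The medians were 0.23 and 0.32 on the LH arrays, 0.16 and 0.06 on the Arc arrays, -0.15 and -0.06 on the VMH arrays, and -0.15 and -0.27 on the DMH arrays.

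A score of the list on each array showed the same order. The median of the 26 probes, each as its log2 signal minus its own mean, reached 0.27 ± 0.06 (SD, n = 2) for the LH and 0.11 ± 0.07 for the Arc. It was -0.10 ± 0.06 in the VMH and -0.21 ± 0.09 in the DMH. Neighbours in this order differed by 0.10 to 0.22 on the log2 scale, and the SD between the 2 arrays of a nucleus was 0.07 when pooled. All neighbouring pairs except VMH and DMH had arrays that did not overlap, and the VMH and DMH arrays met at -0.15.

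No member passed a test among the 4 nuclei. With limma and Benjamini-Hochberg adjustment over all 28896 probes tested, 0 of the 34 member probes that entered the test had an adjusted p under 0.05, where 8.34% of all probes did. At an unadjusted p under 0.05, 12 of the 27 member probes measured on every array passed, against 22.3% of all such probes. Of the 34, 14 passed, against 24.6% of all probes tested, and *Cd74* among them had entered through the Arc alone. A one-way test on each probe, which the study's general rule names, gave 11 before adjustment and 0 after it. It called 21.8% of all probes before adjustment and 1.82% after it.

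Comparisons of 2 nuclei gave 2 calls. The Arc and VMH differed for 1 member probe, that of *B2m*, where 5.92% of all probes were called. The Arc and LH differed for 1, a probe of *Selplg*, where 9.34% of all probes were called. No member probe was called between the Arc and DMH (1.26% of all probes), the VMH and DMH (2.04%), the VMH and LH (5.28%), or the DMH and LH (0.924%). Before adjustment, the numbers of the 27 member probes measured on every array with p under 0.05 in limma were 2, 3, 7, 1, 10, and 14 in the order Arc-VMH, Arc-DMH, Arc-LH, VMH-DMH, VMH-LH, and DMH-LH, against 19.2%, 9.2%, 24.7%, 10.6%, 18.7%, and 13.8% of all such probes.

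The microglial probes leaned one way in most comparisons without passing the test. Of the 26 measured on every array, 23 had a lower mean log2 signal in the DMH than in the LH, with a median difference of -0.55, where the median over all 22747 such probes was -0.04. The VMH was also below the LH for 23 of the 26, with a median of -0.36 against -0.01 over all such probes. Arc minus LH had a median of -0.29 against -0.0011. Arc minus VMH and Arc minus DMH had medians of 0.23 and 0.33, against -0.01 and 0.02, and VMH minus DMH had a median of 0.09 against 0.04. When the arrays were not scaled, these 3 medians were below 0, at -0.04, -0.15, and -0.12, where the median over all probes tested was -0.26, -0.46, and -0.19. Without scaling, DMH minus LH had a median of -0.23, VMH minus LH one of -0.25, and Arc minus LH one of -0.44. Over all probes tested, these were 0.33, 0.13, and -0.11. All probes tested are a wider set than those measured on every array.

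No defining microglial receptor or marker was called among the 4 nuclei. The calcium-binding protein gene *Aif1*, which encodes the Iba1 protein, had scaled signals of 2117 and 1807 in the Arc, 1675 and 1660 in the VMH, 1335 and 1492 in the DMH, and 1999 and 2918 in the LH. Both DMH arrays were the lowest, and the LH arrays lay on both sides of the first Arc array. The largest difference was that of DMH minus LH, -0.78 on the log2 scale with an SE of 0.24 (adjusted p = 0.216, limma).

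*Tmem119*, a surface protein gene used to tell microglia from other macrophages, measured 1909 and 1901 in the Arc, 1227 and 1632 in the VMH, 1450 and 1476 in the DMH, and 2674 and 2359 in the LH. The nuclei fell into an order in which the LH arrays were highest, the Arc arrays next, and the VMH and DMH arrays overlapped below. VMH minus LH was -0.83 with an SE of 0.22, which missed the threshold (adjusted p = 0.0804, limma).

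*Cx3cr1*, the receptor for fractalkine, measured 3486 and 3652 in the Arc, 4344 and 4108 in the VMH, 3256 and 3844 in the DMH, and 4637 and 6230 in the LH. Both LH arrays were the highest and the others lay between 3256 and 4344, with DMH minus LH at -0.60 with an SE of 0.22 (adjusted p = 0.273, limma). A second *Cx3cr1* probe was above background on no array.

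Of the purine receptor genes, *P2ry12* was near the limit of measurement and *P2ry13* was not. *P2ry12*, whose receptor lets microglial processes follow extracellular nucleotides, gave 72.3 and 125 in the Arc, 111 and 87.3 in the VMH, 102 and 85.4 in the DMH, and 116 and 163 in the LH, and only the second LH array was well above background. The gene was not tested and has no order between nuclei. *P2ry13*, its neighbor in the family, was measured on every array at 342 and 260 in the Arc, 204 and 252 in the VMH, 305 and 317 in the DMH, and 567 and 390 in the LH. Both VMH arrays were below all others and both LH arrays above, with VMH minus LH at -1.05 with an SE of 0.27 (adjusted p = 0.0742, limma).

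The probes of *Csf1r*, the receptor for colony-stimulating factor 1 and interleukin 34, disagreed. The probe A_55_P2025073 measured 87479 and 84884 in the Arc, 108110 and 95403 in the VMH, 94997 and 98231 in the DMH, and 67652 and 63119 in the LH. Its LH arrays were the lowest, with VMH minus LH at 0.64 (SE 0.19, adjusted p = 0.113, limma).

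The probe A_55_P2025078 of *Csf1r* measured 4202 and 4370 in the Arc, 5959 and 5733 in the VMH, 3926 and 4885 in the DMH, and 5608 and 7767 in the LH, with the second LH array the highest. The third, A_52_P602091, measured 3124 and 3187 in the Arc, 2061 and 3028 in the VMH, 2586 and 2295 in the DMH, and 2624 and 3762 in the LH, with no nucleus apart from the rest. Since its 3 probes ran in different directions, no direction is given for *Csf1r*.

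**Figure D2:**
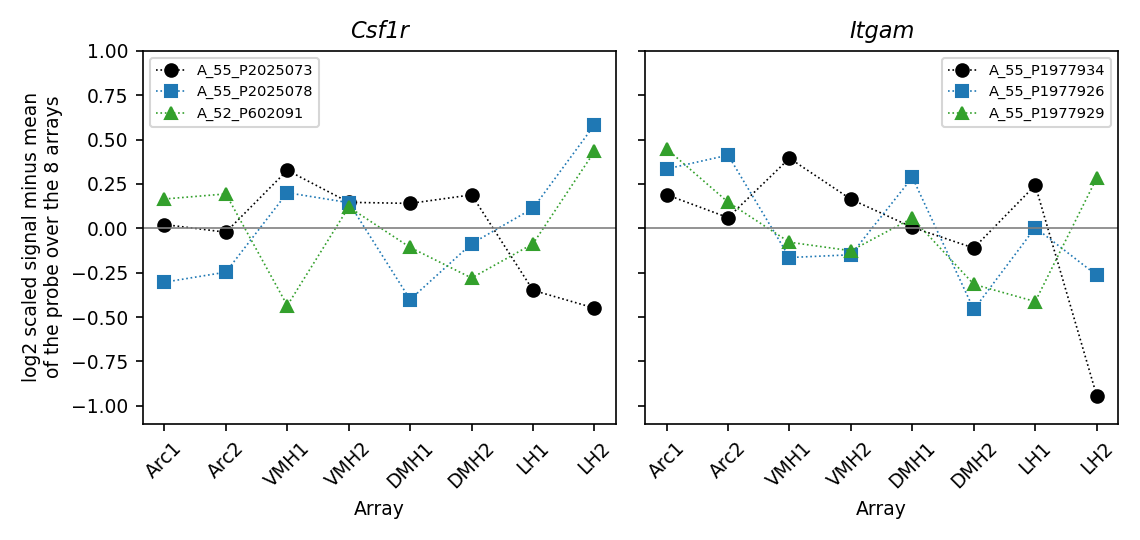
The log2 scaled signal of each probe of *Csf1r* (left) and *Itgam* (right), minus the mean of the probe, on the 8 arrays, where lines only connect the points of a probe. For both genes, the probe drawn in black has its lowest value on the second LH array, where the probes A_55_P2025078 and A_52_P602091 of *Csf1r* have their highest.

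*Selplg*, which encodes the P-selectin ligand PSGL-1, gave the only microglial call. Its probe A_51_P131358 measured 873 and 968 in the Arc, 1160 and 1154 in the VMH, 943 and 1129 in the DMH, and 1841 and 1675 in the LH. Both LH arrays lay above all others, and the means were 1758 ± 117 (SD, n = 2) for the LH and 920.4 ± 66.7 for the Arc. Arc minus LH was -0.93 on the log2 scale with an SE of 0.20 (adjusted p = 0.0325, limma with Benjamini-Hochberg adjustment).

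The call on *Selplg* was close to the threshold. It was lost when either Arc array, either VMH array, either DMH array, or the first LH array was left out, with differences between -1.01 and -0.86 over all such fits. In limma it was also lost without scaling (adjusted p = 0.104), without a filter on dim probes (0.079), and with only the Arc and LH fitted (0.096), and the methods' one-way test gave 0.149 after adjustment. Its second probe, A_55_P1976212, also had its LH arrays above the other 6, at 925 and 1126 against 682 to 890, and was not called in any comparison.

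The remaining receptors of this group were not called. *Siglech*, a sialic acid-binding lectin gene, had 1 probe on every array, from 1192 in the DMH to 2644 in the LH, and a second that was well above background on 6 arrays. The Fc receptor-like gene *Fcrls* ranged from 1617 to 2821, and the array-to-array spread within nuclei was as wide as the difference between them. The lysophosphatidylserine receptor gene *Gpr34* was well above background on both LH arrays, at 208 and 268, and on neither Arc array, at 132 and 107. The LH alone brought it into the test, so no difference is read from it.

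The orphan receptor gene *Gpr84* showed another order. It measured 459 and 195 in the Arc, 340 and 288 in the VMH, 200 and 210 in the DMH, and 175 and 120 in the LH, with the second LH array not well above background. The LH arrays were the lowest, and Arc minus LH was 1.04 with an SE of 0.41 (adjusted p = 0.163, limma).

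The 3 subunits of complement C1q, the molecule that starts the classical pathway, did not share an order. *C1qa* measured 2672 and 2318 in the Arc, 1119 and 1535 in the VMH, 1671 and 1400 in the DMH, and 1652 and 1551 in the LH. Both Arc arrays lay above all others, and Arc minus VMH was 0.93 with an SE of 0.23 (adjusted p = 0.073, limma).

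*C1qb* measured 9568 and 5948 in the Arc, 5432 and 6514 in the VMH, 5874 and 5232 in the DMH, and 7388 and 5750 in the LH. The first Arc array stood above the rest and the nuclei overlapped otherwise. *C1qc* measured 3373 and 2436 in the Arc, 2093 and 2330 in the VMH, 1949 and 2198 in the DMH, and 3526 and 4056 in the LH, with both LH arrays the highest. Its DMH minus LH difference was -0.87 with an SE of 0.23 (adjusted p = 0.167, limma).

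The promoter of *C1qc* is printed because it holds a match to the core of the site bound by PU.1, the macrophage transcription factor encoded by *Spi1*. The motif searched was GAGGAAGT on both strands, and it was found in 4 of the 27 RefSeq promoters of 24 members (14.8%), against 3.2% of 32851 promoters of the same length. The matches were in *C1qc*, *Cd53*, *Ctss*, and *Pf4*. The 250 bases before the start of *C1qc*, at chr4:136892915-136893164 on the minus strand of GRCm38.p6, follow with the match, 195 bases before the start and in reverse complement, in capitals.
C1qc: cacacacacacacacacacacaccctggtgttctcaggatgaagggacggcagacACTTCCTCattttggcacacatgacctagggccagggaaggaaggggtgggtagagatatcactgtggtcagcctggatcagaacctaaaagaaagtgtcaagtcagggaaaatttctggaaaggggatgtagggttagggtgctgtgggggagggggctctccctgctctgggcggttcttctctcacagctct

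The receptor pair of Trem2 and Tyrobp, which senses lipids and signals through the adaptor Tyrobp, had parallel values. *Trem2* measured 2429 and 1853 in the Arc, 1972 and 1753 in the VMH, 1637 and 1741 in the DMH, and 2856 and 3270 in the LH. Both LH arrays were above, and both DMH arrays below, all others. DMH minus LH was -0.86 with an SE of 0.22 (adjusted p = 0.155, limma).

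*Tyrobp* measured 5210 and 5027 in the Arc, 4041 and 4655 in the VMH, 4019 and 3733 in the DMH, and 6804 and 6061 in the LH. The LH arrays were again the highest and the DMH arrays the lowest, with the Arc between the LH and the VMH and no overlap of these 4 nuclei. DMH minus LH was -0.73 with an SE of 0.19 (adjusted p = 0.166, limma).

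Of the other immunoreceptor chains, *Fcer1g*, the common gamma chain of Fc receptors, ranged from 1688 on the first DMH array to 3194 on the second LH array. *Fcgr3*, a low-affinity IgG receptor gene, measured 369 and 377 in the Arc, 121 and 266 in the VMH, 221 and 236 in the DMH, and 333 and 230 in the LH. The Arc arrays were the highest for *Fcgr3*, and the first VMH array was not well above background.

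**Figure D3:**
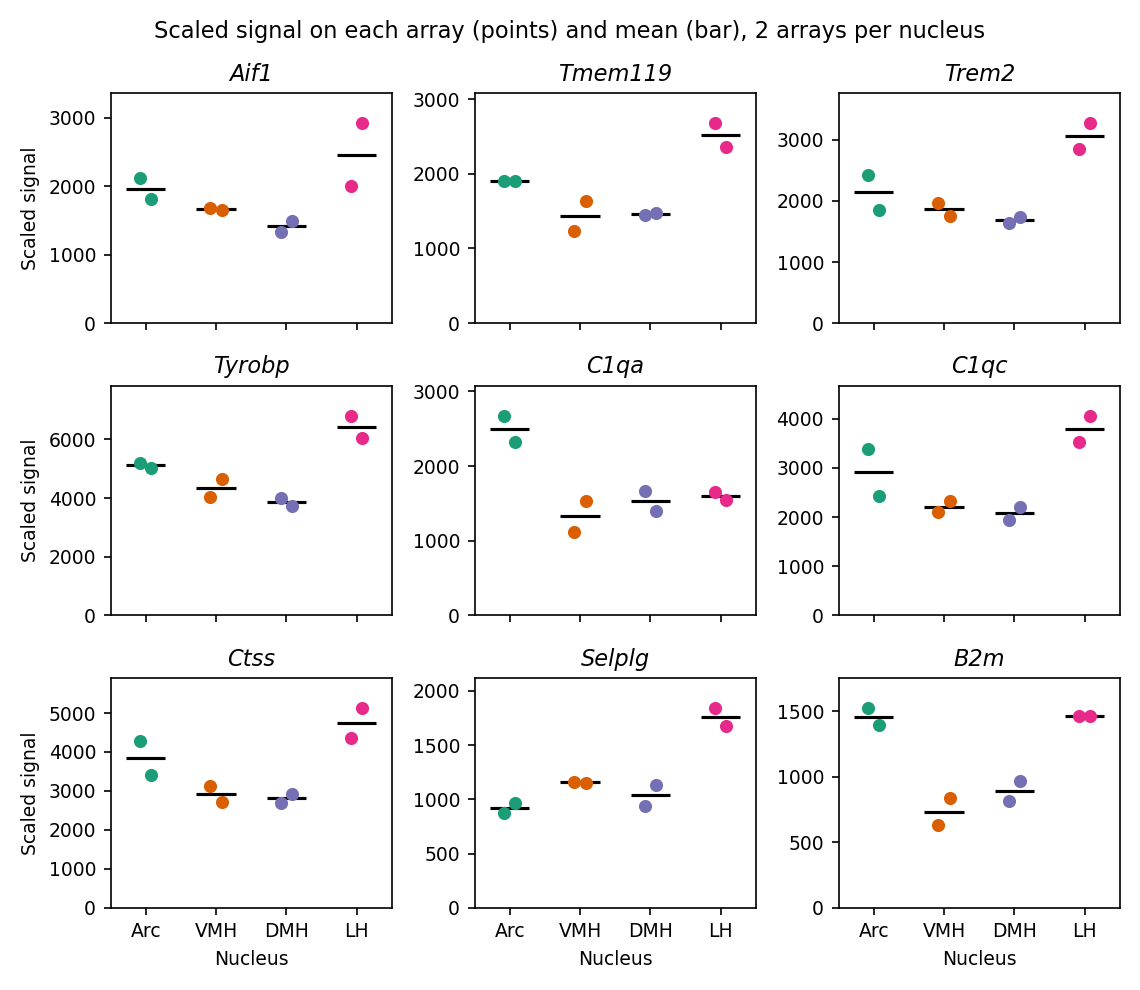
Scaled signal of 9 members on each array (points) and the mean of 2 arrays per nucleus (black bar), on linear axes that start at 0, with the probe A_51_P131358 for *Selplg*. The LH points are the highest for *Tmem119*, *Trem2*, *Tyrobp*, *C1qc*, *Ctss*, and *Selplg*, the Arc points are the highest for *C1qa*, and *B2m* is higher in the Arc and LH than in the VMH and DMH.

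Integrins and surface antigens were mixed. *Itgb2*, the beta-2 integrin chain of leukocytes, measured 382 and 351 in the Arc, 304 and 381 in the VMH, 225 and 226 in the DMH, and 493 and 394 in the LH. The DMH arrays were below all others and nearly equal, and DMH minus LH, at -0.97 with an SE of 0.22, was the largest difference of *Itgb2* (adjusted p = 0.118, limma). Its partner chain *Itgam* had 3 probes on every array, of which A_55_P1977926 was highest on both Arc arrays. The probe A_55_P1977934 of *Itgam* measured 34170.3 on the second LH array and 60792 to 86328 on the other 7.

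The tetraspanin gene *Cd53* ranged from 197 to 460, with both VMH arrays, at 197 and 289, below the Arc and LH arrays, while the DMH arrays were at 221 and 362. The leukocyte phosphatase gene *Ptprc*, which encodes CD45, stayed between 19.4 and 46.6, and the endotoxin co-receptor gene *Cd14* between 45.7 and 94.7, and no array had either of them above background. *Ly86*, the partner of the toll-like receptor homolog RP105, was above background on the first Arc array at 230 and the second LH array at 192. No test was run on these 3 genes.

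All 3 lysosomal probes had both LH arrays above the other 6. *Ctss*, the protease cathepsin S, measured 4281 and 3398 in the Arc, 3127 and 2707 in the VMH, 2687 and 2929 in the DMH, and 4361 and 5125 in the LH. The LH arrays were the highest, the Arc arrays next, and DMH minus LH was -0.75 with an SE of 0.22 (adjusted p = 0.192, limma). *Laptm5*, a lysosomal membrane protein gene of hematopoietic cells, had 2 probes, and both had their LH arrays above the other 6, at 2141 and 2219 against 1526 to 1954 and at 735 and 799 against 434 to 550.

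Neither transcription factor of the lineage was called by limma over all 8 arrays. *Spi1* measured 284 and 181 in the Arc, 27.2 and 157 in the VMH, 128 and 112 in the DMH, and 253 and 140 in the LH. The low VMH value came from the first array, which was not well above background. When the second VMH array was left out, the fitted Arc minus VMH of *Spi1* was 3.06, and the VMH then rests on that first array alone. *Irf8*, which works with PU.1 in microglia, lay between 314 and 411 on all arrays, with both Arc arrays the highest.

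Perivascular macrophage transcripts were at or near background. *Mrc1* measured 104 and 32.1 in the Arc, 32.5 and 22.8 in the VMH, 24.5 and 32.9 in the DMH, and 24.9 and 33 in the LH, and no array was well above background. *Lyve1* lay between 19.4 and 28.6 and was above background on no array either, with 28.6 and 27.6 in the Arc, 27.5 and 20.5 in the VMH, 19.4 and 20.1 in the DMH, and 23.9 and 28 in the LH. The lowest signals that were called well above background lay between 79.3 and 132 on the 8 arrays, so these values are limits and not levels.

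*Cd163* was well above background on 5 arrays, close to that limit. It measured 100 and 142 in the Arc, 152 and 131 in the VMH, 132 and 136 in the DMH, and 99.1 and 133 in the LH, and neither LH array was well above background. The second LH array lay above the second VMH array and the first DMH array, so no order is given. The F-test gave no call (adjusted p = 0.776, limma).

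*Pf4*, a chemokine gene of platelets that border macrophages also express, was well above background on the second DMH array at 429 and the first LH array at 138. Its other 6 values ran from 25.6 to 116. Of 13 probes of 11 other border macrophage genes, 8 were above background on no array, among them *Cd209f* and *Folr2*. The endocytic adaptor gene *Dab2*, also made outside macrophages, was the only one called of 5 probes tested. Its Arc minus LH was -1.93 (SE 0.28, adjusted p = 0.00861, limma), where 9.34% of all probes were called.

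**Figure D4:**
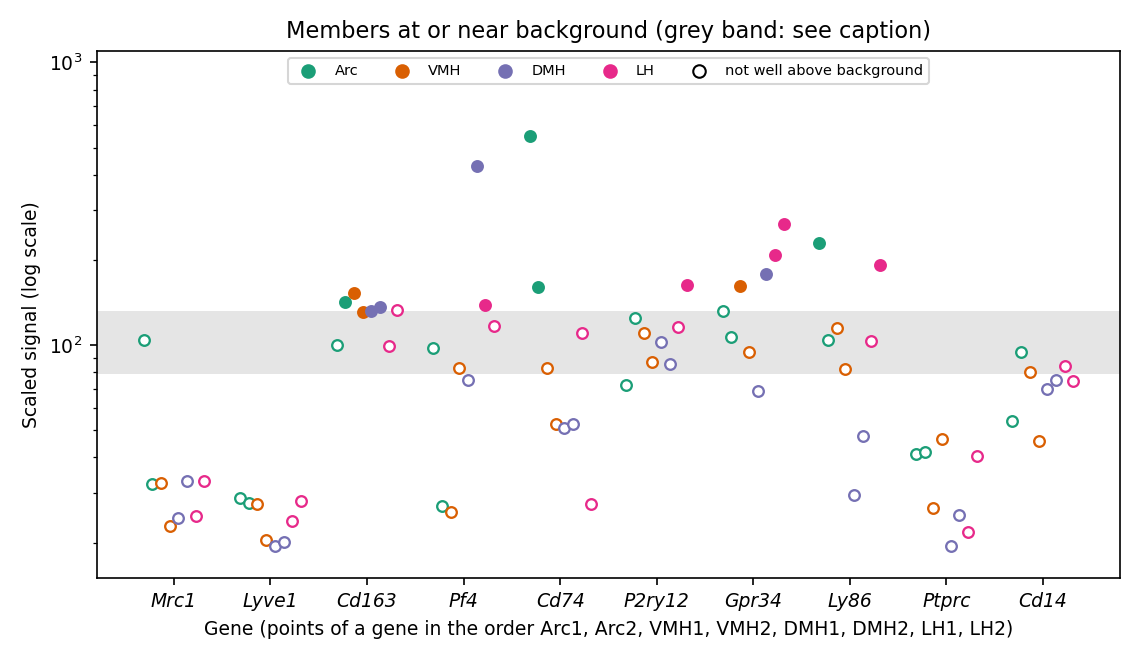
Scaled signals (log axis) of 10 members at or near background on each array, with filled points for arrays on which the probe was well above background and open points for the rest. The grey band runs from 79.3 to 132, the span over the 8 arrays of the lowest signal called well above background, and all points of *Lyve1* and *Ptprc* lie below it.

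The antigen presentation genes had their highest values in the Arc or in the Arc and LH. *B2m*, the light chain of MHC class I, measured 1524 and 1396 in the Arc, 631 and 838 in the VMH, 816 and 972 in the DMH, and 1465 on both LH arrays. The Arc and LH arrays lay above all arrays of the VMH and DMH. Arc minus VMH was 1.00 with an SE of 0.22 (adjusted p = 0.0477, limma with Benjamini-Hochberg adjustment), and VMH minus LH was -1.01 with an SE of 0.22 (adjusted p = 0.0502).

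The call on *B2m* was close to the threshold. Without either Arc array, either VMH array, or either DMH array it was lost, with differences between 0.80 and 1.21, and it remained without either LH array. In limma it was also lost without scaling (adjusted p = 0.369), without a filter on dim probes (0.106), and when sample number was added as a block (0.0636), although it is not known to mark the mouse, and the methods' one-way test gave 0.286 after adjustment. The F-test of *B2m* had an adjusted p of 0.0582 in limma. Since neurons and vessels also make class I molecules, *B2m* marks no cell type by itself.

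The promoter of *B2m* is shown because it holds the core of an interferon-stimulated response element, searched on both strands as GAAA followed by any 2 bases and GAAA again. This core was in 3 of the 27 member promoters (11.1%), those of *Aif1*, *B2m*, and *Ctss*, against 3.44% of all promoters. The 250 bases before the start, at chr2:122147437-122147686 on the plus strand of GRCm38.p6, have the match, 139 bases before the start, in capitals. A match of letters is a description and not a bound site.
B2m: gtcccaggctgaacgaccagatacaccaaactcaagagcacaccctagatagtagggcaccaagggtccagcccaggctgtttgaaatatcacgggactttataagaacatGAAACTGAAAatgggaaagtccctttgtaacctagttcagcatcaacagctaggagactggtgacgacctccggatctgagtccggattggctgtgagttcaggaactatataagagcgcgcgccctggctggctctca

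*Cd74*, the invariant chain that escorts MHC class II, was well above background in the Arc alone. It measured 548 and 160 in the Arc, 83.1 and 52.4 in the VMH, 50.9 and 52.4 in the DMH, and 110 and 27.4 in the LH, with both Arc arrays above the other 6 but far from each other. The Arc was at least 2.85-fold higher than the VMH, at least 3.16-fold higher than the DMH, and at least 2.45-fold higher than the LH. With the second Arc array alone, these bounds were 1.54, 1.71, and 1.33. Since the Arc alone brought *Cd74* into the test, the fitted p of Arc minus LH (adjusted p = 0.0953, limma) only describes the fit.

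Other genes of MHC and interferon responses had similar values. From a list of 16 genes, 8 probes were measured on every array, and all 8 had a higher mean log2 signal in the Arc than in the VMH, the DMH, and the LH. Their medians were 0.83 over the VMH, 0.43 over the DMH, and 0.16 over the LH, against -0.01, 0.02, and -0.0011 for all probes measured on every array, and without scaling the medians were 0.56, -0.05, and 0.0008. By array, the median of the 8 probes relative to their means was 0.55 and 0.16 in the Arc and 0.36 and -0.0030 in the LH, so the second Arc array lay below the first LH array. Of 12 tested probes, the immunoproteasome gene *Psmb8* and the class I gene *H2-D1* were called against the VMH, where 5.92% of all probes were called. A probe of the class II gene *H2-Ab1* was above background in the Arc alone, which brought it into the test, so its call against the LH is not counted. *Psmb8* measured 1177 and 979 in the Arc and 106 and 149 in the VMH, and the first VMH array was not well above background. Its fitted difference of 3.1 on the log2 scale (SE 0.44, adjusted p = 0.01, limma) thus rests on 1 measured VMH array. The class II genes *H2-Aa* and *H2-Eb1* were above background on 1 and 5 arrays.

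Further genes of microglia, from a list of 40, were in part like the members. Of 28 probes measured on every array, 23 had a lower mean log2 signal in the DMH than in the LH, where 53.8% of all such probes did, with a median of -0.37. Without scaling this median was -0.04, where the median over all probes tested was 0.33. VMH minus DMH had a median of -0.01, beside 0.09 for the members. The F-test called 3 of the 32 tested, where 8.34% of all probes were called, and these were *Cd83*, *Rgs10*, and *Ctsz*, which neurons or astrocytes may also make. *Rgs10*, a regulator of G protein signaling, had VMH minus LH at -2.11 (SE 0.20, adjusted p = 0.00369, limma), and *Cd83* had Arc minus VMH at -1.71 (SE 0.21, adjusted p = 0.00613).

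*Ctsz*, the protease cathepsin Z, had its highest values in the Arc, 6179 and 6582, and its lowest in the VMH, 2227 and 2621. Arc minus VMH was 1.4 with an SE of 0.22 (adjusted p = 0.0148, limma).

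In a list of 10 genes that holds ligands of microglial receptors and some receptors, the F-test called 2 of 11 tested probes. These were of *Il34* and *C3*, where 8.34% of all probes were called. The *C3* probe was above background in the VMH alone, which brought it into the test, so nothing is read from its call. Interleukin 34, a neuronal ligand of Csf1r encoded by *Il34*, measured 3833 and 4009 in the Arc, 12400.2 and 11434 in the VMH, 3995 and 4910 in the DMH, and 6380 and 5853 in the LH. Both VMH arrays lay above all others, and the VMH was higher than the Arc by 1.60 on the log2 scale (SE 0.20, adjusted p = 0.00684, limma), than the DMH by 1.43 (adjusted p = 0.0185), and than the LH by 0.96 (adjusted p = 0.0429).

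*Csf1*, the other ligand of this receptor, was highest in the Arc and lowest in the VMH. It measured 2344 and 2469 in the Arc, 1332 and 1313 in the VMH, 1643 and 1659 in the DMH, and 1861 and 1885 in the LH. Arc minus VMH was 0.86 with an SE of 0.18 (adjusted p = 0.0393, limma), and the arrays of the 4 nuclei did not overlap. The other *Csf1* probes were above background on 1 array in all.

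*Cx3cl1*, the fractalkine gene, measured 14822 and 16084 in the Arc, 47713 and 30720.1 in the VMH, 24612 and 18589 in the DMH, and 17139 and 24241 in the LH, with both VMH arrays the highest and no call. *Cd200*, a brake on microglia made by neurons, lay between 11008 and 14745 on all arrays. *Tgfb1*, needed for microglial identity, was above background on 6 arrays at values up to 261. The other probe of complement *C3* was not called.

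Of 18 probes of 17 genes that microglia raise when activated, 9 were above background on no array, among them *Il1b*, *Tnf*, *Itgax*, *Cst7*, and *Nos2*. *Tspo*, a mitochondrial protein gene that astrocytes and vessels also make, was the only gene called of 7 probes tested, where the F-test called 8.34% of all probes. It measured 1186 and 1001 in the Arc, 259 and 249 in the VMH, and 382 and 349 in the LH, with Arc minus VMH at 2.10 (SE 0.26, adjusted p = 0.00688, limma) and Arc minus LH at 1.58 (adjusted p = 0.0152). The Arc and the DMH, whose values are not given here, did not differ by a call. *Apoe* and *Axl* were not called, and *Spp1* was well above background on 5 arrays.

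Markers of blood cells give a measure of how much blood-borne material was dissected. Of 13 probes of monocyte and neutrophil genes, 11 were above background on no array, those of *Ccr2*, *S100a8*, and *S100a9* among them, and the 1 tested, of *Lyz2*, was not called by limma at an adjusted p under 0.05 or before adjustment. None of the 4 tested lymphocyte probes was called by limma in any comparison. Red blood cell genes were measured in every nucleus, but not evenly. The summed signals of 4 probes were 17955 to 23363 in the VMH and 23101 to 35848 in the Arc. They were 34679 to 50086 in the DMH and 35663 to 56956 in the LH. Of these genes, *Alas2* was called between the VMH and LH at -1.13 (SE 0.24, adjusted p = 0.0461, limma), where 5.28% of all probes were called.

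Most oligodendrocyte genes had their highest signals in the LH. Of 11 probes measured on every array, 9 had a higher mean log2 signal in the LH than in each other nucleus, and the 2 that did not were of *Mbp*. The 11 probes had a summed signal of 133102 to 141588 in the LH, 45474 to 52899 in the VMH, 37972 to 38502 in the DMH, and 20534 to 27767 in the Arc. Their highest nucleus was 1.75 to 17.7 times the lowest, with a median of 9.64, and 9 of the 11 were called by the F-test, against 6.51% of all probes measured on every array. Of the myelin genes, *Mobp* had DMH minus LH at -2.46 (SE 0.36, adjusted p = 0.0389, limma). The probe A_55_P1992160 of *Mbp* was called the other way, with Arc minus LH at 1.26 (SE 0.29, adjusted p = 0.0408, limma).

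The astrocyte and endothelial lists were also lower in the VMH than in the LH. Over the probes measured on every array, VMH minus LH had a median of -0.53 for 14 astrocyte probes and -0.89 for 9 endothelial probes, beside -0.36 for the microglial probes. DMH minus LH had a median of -0.29 for the astrocyte probes, -0.57 for the endothelial probes, and -0.32 for 16 neuron probes, beside -0.55 for the microglial probes. Without scaling these were 0.03, -0.25, 0.06, and -0.23, where the median over all probes tested was 0.33. The Arc was higher than the other nuclei in the ependymal and tanycyte list, where the F-test called 3 of 5 such probes, *Vim* among them, against 6.51% of all such probes. The part that these differences in cell makeup have in the differences of the members was not tested.

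**Figure D5:**
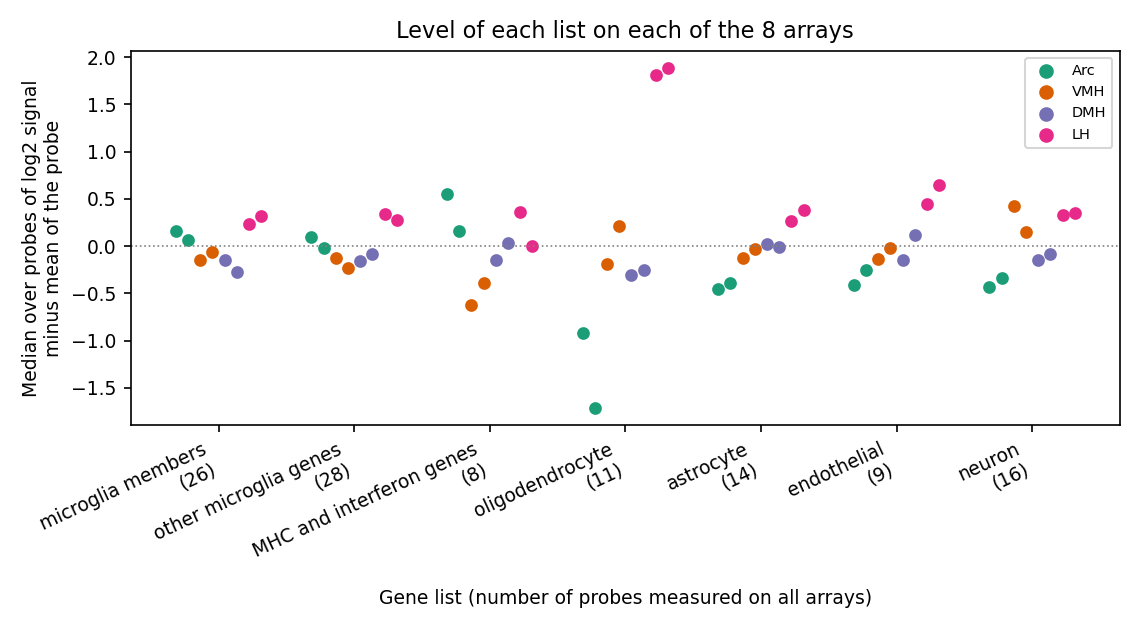
Each point is an array, and its height is the median over the probes of a gene list (number in brackets) of the log2 scaled signal minus the mean of the probe. The microglial lists span less than the oligodendrocyte list, whose LH arrays are at 1.82 and 1.89 and whose Arc arrays are at -0.92 and -1.71.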

How the data were processed

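The authors amplified RNA of laser-microdissected nuclei, labeled the cDNA with a ULS kit, hybridised it to one-color Agilent arrays and extracted spots with Agilent Feature Extraction, for which the labels give version 11.5.1.1 and the file headers 10.7.3.1. Per the file headers, the deposited signal is a linear intensity with background subtracted and no scaling between arrays. It was read in the red channel, that of the Cy5 given in the methods, while the labels name Cy3. The deposited table of all arrays holds intensities that equal the mean signal of the probe within 0.51 for 99.73% to 99.85% of the values of an array.

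Spots marked as outliers were dropped and replicate spots averaged. Division by the 75th percentile of the array followed, rescaled so that the divisors have a geometric mean of 1. Low values were kept. Testing required a probe to be called well above background on both arrays of some nucleus. One mean per nucleus was fitted to the log2 signals in limma 3.58.1 (R 4.3.3), with Benjamini-Hochberg adjustment over 28896 probes and a threshold of 0.05, and it was tested on simulated data. The number of arrays limits the precision. A fold given as "at least" sets the geometric mean of the bright nucleus against that of the higher, on each array, of the dim probe's own signal and the lowest signal called well above background.

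Groups came from the source labels. RefSeq annotation of GRCm38.p6 named 26762 of 28390 probes with a RefSeq accession. Every member is described. Values on all arrays are given for *Aif1*, *Cx3cr1*, *P2ry12*, *Tmem119*, *Csf1r*, *Trem2*, *Tyrobp*, the C1q genes, *Ctss*, *Mrc1*, *Cd163*, *Lyve1*, and each gene with a call, and for others chosen after their values were seen. From other lists, up to 5 called probes with the largest differences and the first 3 genes could be named, and further genes named were chosen after their values were seen. The members and lists were chosen with earlier results of these data known. Marker lists for mural cells, platelets, neurons, lymphatic vessels, and the choroid plexus with the pituitary were computed too. The F-test called 0 of 7, 0 of 5, 8 of 16, 1 of 3, and 2 of 4 of their probes, where 8.34% of all probes were called. Alternatives for scaling, background, filter, outlier spots, moderation, replicate number, single arrays, and test were run.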

Additional observations from a re-analysis of the deposited data

How the results depend on the processing

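Calls were few and close to the threshold, and 2 arrays per nucleus limit what can be called. The medians in this section are over all tested microglial probes, 31 in the main fit with *Gpr34* among them, and not over the 26 measured on every array. In the main fit they were 0.24, 0.37, -0.27, 0.09, -0.44, and -0.56 in the order Arc-VMH, Arc-DMH, Arc-LH, VMH-DMH, VMH-LH, and DMH-LH. Without scaling, they were -0.034, -0.11, -0.43, -0.12, -0.33, and -0.24 in the same order. The medians of all probes were then -0.26, -0.46, -0.11, -0.19, 0.13, and 0.33, and no member probe was called (0 for Arc-VMH and for Arc-LH). With normexp background correction, the medians were 0.26 for Arc-DMH, -0.20 for Arc-LH, -0.37 for VMH-LH, and -0.35 for DMH-LH, and calls were 1 by the F-test, 2 for Arc-VMH, and 3 for VMH-LH. With no filter on dim probes, there were 0 calls for Arc-VMH and Arc-LH. With probes above background on all arrays, the F-test called 1, Arc-VMH 2, and VMH-LH 2, and the VMH-LH median was -0.36. Raised low signals gave 1 by the F-test and 1 for VMH-LH, and trended moderation gave 1, 2 for Arc-VMH, and 2 for VMH-LH. The methods' one-way test called 11 before adjustment, where it called 21.8% of all probes. Between nuclei it called 2, 1, 3, 8, and 10 for Arc-VMH, Arc-DMH, Arc-LH, VMH-LH, and DMH-LH, and 0 for Arc-VMH and Arc-LH after adjustment. A fit of the compared nuclei alone gave 0 for Arc-LH. The share of all probes called moved as well. The F-test called 8.34% of them in the main fit, 6.5% without scaling, 10.3% with normexp, and 3.15% with no filter. It called 10.6% of probes above background on all arrays, 9.33% with raised low signals, and 11.1% with trended moderation. The shares between 2 nuclei under these settings are not given, so those counts only describe the fits. The cause of these changes was not tested.

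With the replicate number as a block, 0 probes were called for Arc-VMH, where *B2m* had an adjusted p of 0.0636 in limma, and 2 for Arc-LH, *Selplg* and *Cd74*, the latter brought into the test by the Arc alone. The numbers do not show a pairing, since the correlations of replicate deviations between nuclei ran from -0.027 to 0.258 and the number also marks the row of the slide.

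A fit without a single array leaves 1 sample in a nucleus. Both the member calls and the calls over all probes moved in such fits, so calls are not counted and only differences are given. *Spi1* had Arc minus VMH at 3.06 without the second VMH array, and *P2ry13* had VMH minus LH at -1.32 without the second LH array. Without the first LH array, *Itgam* A_55_P1977934 had Arc minus LH at 1.07 and VMH minus LH at 1.22. *Cd74*, brought into the test by the Arc alone, then had Arc minus LH at 3.43. Over the microglial probes tested in each fit, the medians ranged from 0.20 to 0.32 for Arc-VMH, 0.28 to 0.38 for Arc-DMH, and -0.27 to -0.17 for Arc-LH. They ranged from 0.061 to 0.17 for VMH-DMH, -0.54 to -0.35 for VMH-LH, and -0.63 to -0.48 for DMH-LH.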
